A study of Moricandia suffruticosa and Brassica napus with 23 samples.

Results

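Oilseed rape (Brassica napus) leaves were compared after drought and after heat, and the genes described here are those that differed from control leaf in the same direction under both stresses. A gene was taken as shared when its values in all 6 stressed libraries lay above the values in all 3 control libraries, or all below, and when both stress means of log2(FPKM + 1) differed from the control mean by 1 or more. FPKM is a read count scaled to coding length and to the depth of the library. Of 101040 genes in the table, 2021 met this rule: 574 were higher and 1447 were lower in both stresses. The members were therefore selected on their measured values against control, and every drought or heat value against control below is a description, with no test.

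The 3 groups were control plants kept at 25 °C, plants from which water was withheld for 3 days, and plants held at 40 °C for 3 h. All were 35-day plants grown in soil at 60% humidity with 16 h of light a day, and polyadenylated RNA from their leaves was sequenced in 3 libraries per group. The series also holds 14 libraries of the wild relative Moricandia suffruticosa, which were not analysed here. The treatment note in the labels speaks of 1 replicate for drought, and no label says whether the libraries of a group come from separate plants, so that the p-values measure the spread between libraries, which may be technical. Both stresses were set against the same 3 control libraries, so a feature particular to these controls cannot be told apart from a change shared by the stresses.

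Heat-shock proteins are chaperones that bind unfolding proteins. Heat-shock transcription factors switch on their genes, and small heat-shock proteins, HSP70, HSP101 and their co-chaperones act together in keeping proteins soluble and refolding them. Jasmonates are hormones made from plastid fatty acids by lipoxygenases, allene oxide synthase, allene oxide cyclase and OPR3, and are known for wound and herbivore responses of leaves. Jasmonoyl-isoleucine brings the receptor COI1 to the JAZ repressors, whose removal frees MYC2 and related factors, and JAZ genes are themselves among the targets of the pathway. Genes are named by their closest Arabidopsis match, as listed in the table, and roles given below are known from Arabidopsis. Oilseed rape carries an A and a C subgenome, so that 1 Arabidopsis gene usually has several copies, and reads from near-identical copies may be split between them with an uncertainty that was not measured.

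The libraries rested on 12173797 to 12934917 reads, and 1 read on 1 kb of coding sequence was worth 0.0773 to 0.0821 FPKM. The leaf label was checked with 4 mesophyll markers, which summed to 31400 to 31900 FPKM in control, 23600 to 24500 in drought and 25600 to 26300 in heat. Guard-cell markers summed to 76.1 to 79.3, 78.7 to 91.4 and 76.4 to 80.6 FPKM, and phloem markers to 385.0 to 427.0, 472.0 to 501.0 and 503.0 to 514.0 FPKM in the same order. Of the root, flower and seed markers, 1, 0 and 2 gene copies reached the level needed for testing, and 2 seed loci and 1 root locus were at 0 in all 9 libraries. The seed sum was 1.60 to 3.05 FPKM in control, 3.19 to 3.89 in drought and 21.6 to 24.8 in heat. The part of these shifts in the shared genes was not tested. In whole leaf, fewer cells of a type and less RNA per cell cannot be told apart.

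Among the 44260 genes that reached 1 FPKM in at least 3 libraries, the shared higher genes made up 1.3% and the shared lower genes 3.24%. All 574 higher genes and 1434 of the 1447 lower genes were in this set, and the other 13 lower genes had control means of 1.02 to 1.83 FPKM. By the same rule applied to each stress alone, 2295 genes were higher and 3064 lower in drought, and 6438 were higher and 4990 lower in heat. A further 226 genes were higher in drought and lower in heat, and 219 the other way round. The limma calls against control covered 5.12% (higher) and 6.87% (lower) of tested genes in drought, and 14.4% and 11.2% in heat.

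The median higher gene went from a mean of 3.71 FPKM in control to 19.6 in drought and 17.8 in heat, and the median lower gene from 13.3 to 2.39 and 2.11. On the log2(FPKM + 1) scale the median changes were 1.64 in drought and 1.66 in heat for the higher genes, and -1.66 and -1.80 for the lower genes. Over all tested genes the medians were -0.06 and 0.16. Both changes reached 2 for 108 higher and 345 lower genes, and 5 for 16 higher and 4 lower genes. Summed, the higher genes took 0.808% to 0.813% of all FPKM in the control libraries, 6.78% to 7.04% in drought and 6.22% to 6.23% in heat. The lower genes took 6.81% to 6.86%, 1.75% to 1.78% and 1.59% to 1.60%. These sums describe genes chosen for the difference.

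**Figure D1:**
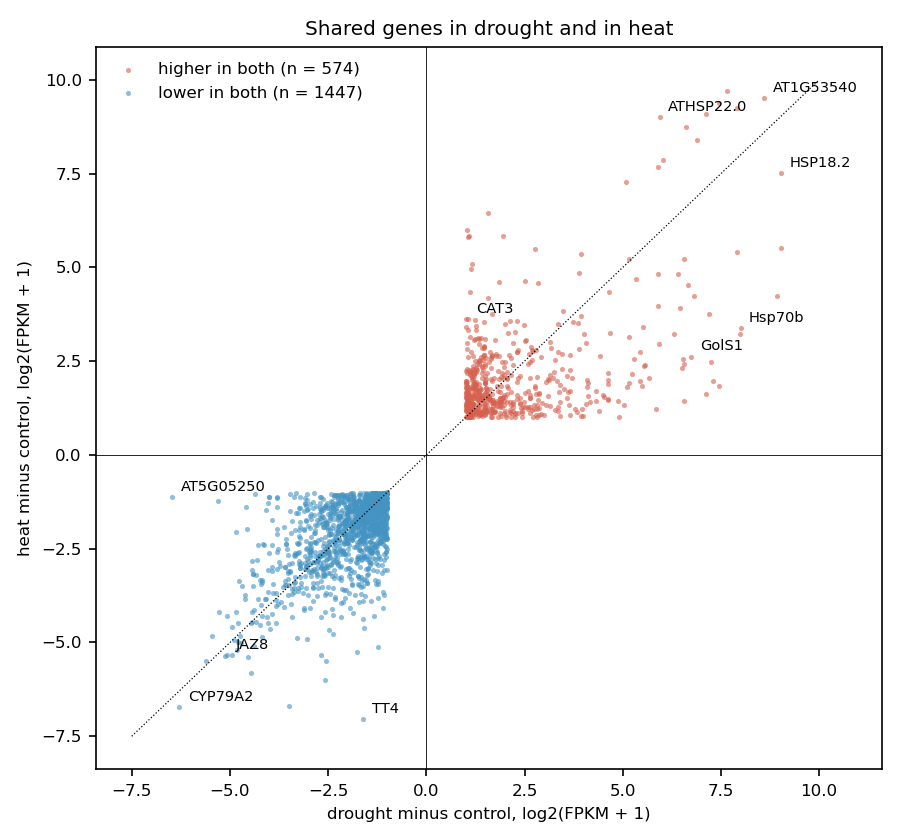
Log2 change against control in drought (x axis) and heat (y axis) on the log2(FPKM + 1) scale, 1 point per shared gene, with 574 genes higher and 1447 lower in both stresses; the dotted line marks equal change. The empty band between -1 and 1 on each axis is made by the rule, and the small heat-shock protein genes lie farthest out at the upper right.

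The rule left some genes barely in and others barely out. RbcX1 (BnaC09g22880D), a Rubisco assembly chaperone, had changes of 1.0005 in drought and 3.4187 in heat and was just inside on the higher side, as was AT1G68670 (BnaC02g18390D) with 1.0010 in drought and 1.1800 in heat. AILP1 (BnaA10g15900D) with 1.2991 in drought and 0.9995 in heat and SPD1 (BnaC05g42650D) with 0.9986 in drought and 1.0654 in heat were left out. On the lower side LBD41 (BnaA03g27980D), with -1.0006 in drought and -1.0110 in heat, and AT3G51870 (BnaA03g56020D), with -1.0003 in drought and -1.0003 in heat, were just inside. CYSC1 (BnaA04g00700D), with -0.9998 in drought and -1.2812 in heat, and SMT1 (BnaC02g04950D), with -1.3375 in drought and -0.9993 in heat, were just outside.

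The largest shared differences on the higher side were those of small heat-shock proteins, chaperones that hold unfolding proteins in a soluble state. Of 44 tested gene copies in this list, 30 were higher in both stresses and 2 lower, with list medians of 5.42 in drought and 3.84 in heat against -0.06 and 0.16 over all tested genes. Summed, the list took 0.0712% to 0.0719% of all FPKM in control, 2.51% to 2.69% in drought and 2.75% to 2.81% in heat. AT1G53540 (BnaC03g11630D), the cytosolic class I protein HSP17.6C, stood at 6.03, 6.79 and 6.18 FPKM in the control libraries, 2815, 2774 and 2956 in drought and 5421, 5233 and 5333 in heat. The control libraries were far below all stressed libraries and every heat library lay above every drought library. The log2 changes were 8.60 in drought and 9.51 in heat, and the smaller of them was the largest such value of any shared gene. All 6 tested copies of this locus were shared.

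ATHSP22.0 (BnaC03g28860D), targeted to the endoplasmic reticulum, stood at 1.59, 2.37 and 1.32 FPKM in the control libraries, 674, 652 and 638 in drought and 1648, 1696 and 1608 in heat. HSP21 (BnaC01g20320D), the plastid form, stood at 0.584, 1.04 and 0.699 FPKM in the control libraries, 254, 247 and 233 in drought and 974, 992 and 897 in heat. For both, drought and heat did not overlap and heat was the higher: the difference of heat minus drought was 1.33 ± 0.10 (SE, n = 3 per group; limma, adjusted p = 5.05e-07) for ATHSP22.0 and 1.96 ± 0.085 (SE, n = 3 per group; limma, adjusted p = 3.5e-09) for HSP21. HSP18.2 (BnaA03g09300D), a cytosolic class I protein with 1 tested copy, stood at 1.79, 1.78 and 1.95 FPKM in the control libraries, 1467, 1457 and 1529 in drought and 514, 511 and 518 in heat. Here the order was the reverse, with drought above heat and a difference of -1.53 ± 0.04 (SE, n = 3 per group; limma, adjusted p = 5.58e-11).

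HSP17.6II (BnaC09g44630D), of cytosolic class II, stood at 5.59, 2.52 and 3.72 FPKM in the control libraries, 1126, 1157 and 1185 in drought and 207, 189 and 214 in heat, and 4 of its 5 tested copies were shared. The mitochondrial HSP23.6-MITO (BnaC01g17140D) stood at 12.9, 13.5 and 14.2 FPKM in the control libraries, 1414, 1415 and 1576 in drought and 337, 330.3 and 337 in heat. In both genes all drought libraries lay above all heat libraries, with heat minus drought differences of -2.50 ± 0.17 (SE, n = 3 per group; limma, adjusted p = 1.36e-07) and -2.13 ± 0.05 (SE, n = 3 per group; limma, adjusted p = 2.11e-11). AT2G29500 (BnaA04g28570D), HSP17.6B, had means of 12.4 ± 0.7698 FPKM in control, 1269.5 ± 144 in drought and 504 ± 5.74 in heat (SD, n = 3). AT1G52560 (BnaC06g05390D), HSP26.5, had means of 1.72 ± 0.352 FPKM in control, 230.0 ± 15.8 in drought and 75.02 ± 2.62 in heat, and AT1G07400 (BnaC04g54520D), HSP17.8, had 4.19 ± 1.39 FPKM in control, 182 ± 38.3 in drought and 189 ± 10.8 in heat. For the last, drought and heat overlapped, with a difference of 0.07 ± 0.17 (SE, n = 3 per group; limma, adjusted p = 0.718). The exceptions were 2 of 3 tested copies of HSP21.7 (AT5G54660), which were lower in both stresses.

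**Figure D2:**
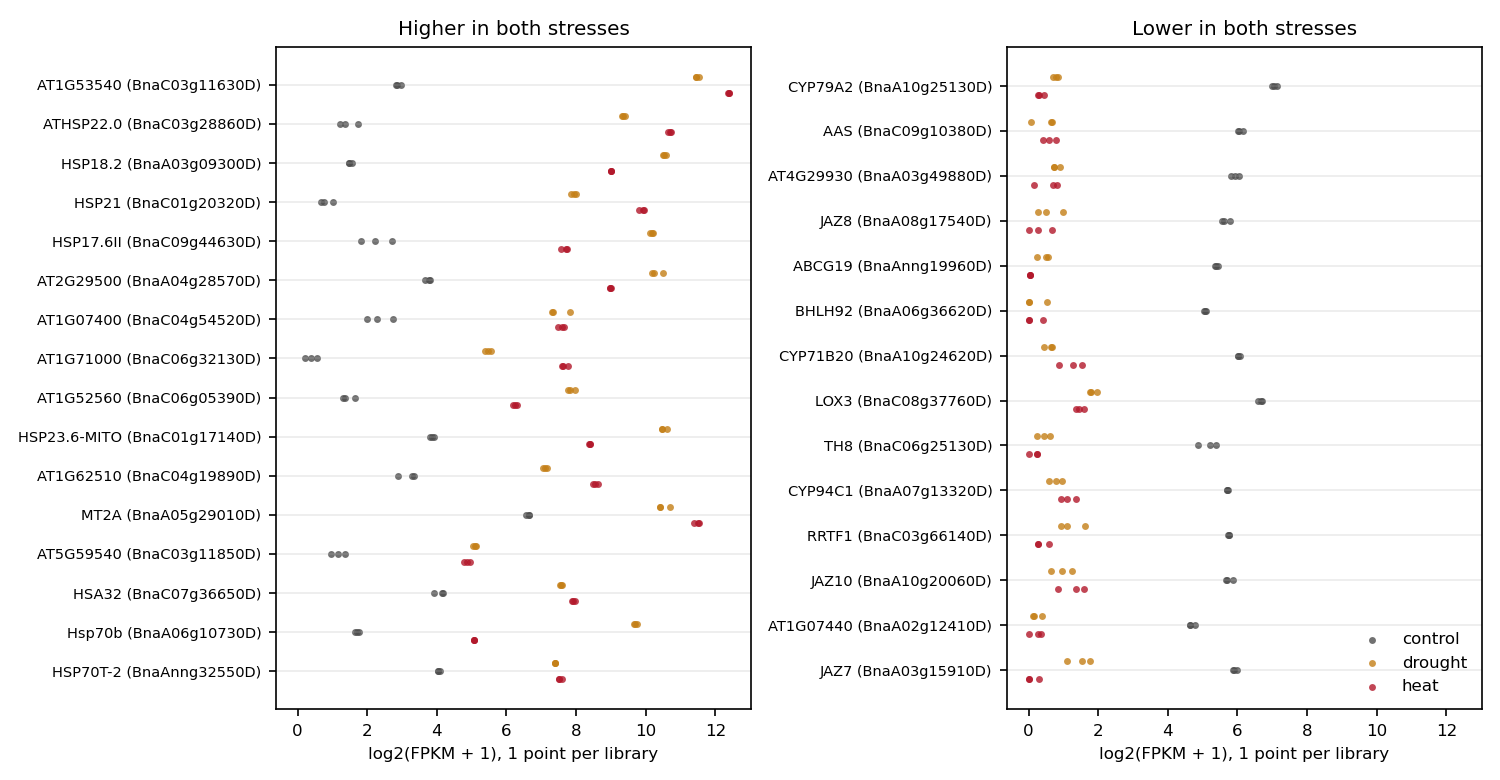
FPKM on a log axis (as log2(FPKM + 1)) in each of the 9 libraries for the 16 shared higher genes and the 14 shared lower genes with the largest changes, 1 point per library, coloured by group. In every row the control points lie apart from all stressed points, as the rule demands, while drought and heat points lie together in some rows and apart in others such as Hsp70b.

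Among the HSP70 chaperones, which refold proteins with ATP, 8 of 64 tested copies were higher and 4 lower. The 8 were all 5 tested copies of Hsp70b and all 3 of HSP70T-2, a truncated member. The list as a whole went opposite ways, with medians of 0.305 in drought and -0.885 in heat. It summed to 7520 to 7850 FPKM in control, 15100 to 15600 in drought and 2910 to 3040 in heat. Against control, limma called 23 of the 64 higher and 4 lower in drought, and 9 higher and 30 lower in heat. Over all tested genes these calls covered 5.12% and 6.87% in drought, and 14.4% and 11.2% in heat. Hsp70b (BnaA06g10730D) stood at 2.13, 2.26 and 2.37 FPKM in the control libraries, 863, 830.0 and 805 in drought and 32.9, 32.7 and 32.3 in heat. Drought was far above heat, and heat above control, with no overlap between any groups. Heat minus drought was -4.63 ± 0.054 (SE, n = 3 per group; limma, adjusted p = 1.23e-13). HSP70T-2 (BnaAnng32550D) stood at 16.1, 15.4 and 15.4 FPKM in the control libraries, 168, 169 and 168 in drought and 183, 183 and 192 in heat. On the unscaled values heat lay slightly above drought, with a difference of 0.14 ± 0.043 (SE, n = 3 per group; limma, adjusted p = 0.0107). Trimmed-mean scaling moved the median of all tested genes by -0.22, which is more than this difference, so the order may depend on the scaling. The 4 lower copies were 2 of 25 tested copies of HSC70-1 and 2 of 8 of HSC70-2, the constitutive cytosolic forms.

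HSA32, which in Arabidopsis prolongs acquired heat tolerance, was the source of both shared genes in the list of HSP101 and ClpB disaggregases (2 of 13 tested). HSA32 is annotated as an aldolase-type TIM barrel protein, and no other locus of this list had a shared copy. Against control, limma called 12 of the 13 higher in drought and 2 in heat, and 0 lower in either. Over all tested genes the higher calls covered 5.12% in drought and 14.4% in heat. The HSA32 copy BnaC07g36650D stood at 16.9, 17.1 and 14.1 FPKM in the control libraries, 184, 191 and 189 in drought and 251, 239.8 and 235 in heat. Control was lowest and heat above drought in this copy. The copy BnaA03g58470D had means of 11.1 ± 1.42 FPKM in control, 207 ± 1.03 in drought and 44.3 ± 2.502 in heat, with drought above heat. Heat minus drought was 0.36 ± 0.066 (SE, n = 3 per group; limma, adjusted p = 0.000478) in the first and -2.20 ± 0.079 (SE, n = 3 per group; limma, adjusted p = 6.95e-10) in the second. Of 24 tested HSP90 copies only Hsp89.1 (BnaA05g29880D), a mitochondrial form, was shared, with means of 5.098 ± 0.479 FPKM in control, 20.5 ± 1.04 in drought and 18.8 ± 1.61 in heat.

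Co-chaperones, which guide HSP70 and HSP90, had 20 of 70 tested copies higher and 1 lower, with list medians of 0.98 in drought and 0.63 in heat. AT1G71000 (BnaC06g32130D), a DnaJ-domain protein, stood at 0.311, 0.154 and 0.465 FPKM in the control libraries, 43.4, 40.4 and 46.3 in drought and 196, 216 and 193 in heat. Heat exceeded drought in all libraries, with a difference of 2.19 ± 0.095 (SE, n = 3 per group; limma, adjusted p = 3.6e-09), and all 3 tested copies were shared. The immunophilin AT5G48570 (BnaA06g30120D), ROF2, stood at 27.4, 23.4 and 24.4 FPKM in the control libraries, 903, 930.0 and 934 in drought and 226, 230.3 and 236 in heat. Here drought exceeded heat, with a difference of -1.99 ± 0.052 (SE, n = 3 per group; limma, adjusted p = 5.27e-11). J11 (BnaC01g02600D), a small plastid DnaJ protein, had means of 32.4 ± 3.44 FPKM in control, 204 ± 1.41 in drought and 214 ± 10.1 in heat, and the libraries of the stresses overlapped. BAG6 (BnaA05g01560D) had 4.7 ± 0.482 FPKM in control, 532 ± 20.7 in drought and 29.6 ± 0.759 in heat, and heat minus drought was -4.12 ± 0.068 (SE, n = 3 per group; limma, adjusted p = 1.35e-12). Both tested copies of the ubiquitin ligase CHIP and 2 of 6 of the HSP90 partner P23-1 were also shared. The lower copy was 1 of 2 of DJC24.

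Folding machines of the organelles and of the endoplasmic reticulum were shared in part. Of 48 tested chaperonin copies 7 were higher and none lower. Cpn60beta2 (BnaA03g32840D), of the plastid chaperonin, had means of 15.1 ± 0.371 FPKM in control, 236 ± 13.5 in drought and 113 ± 0.871 in heat, and was the only shared copy of 5 tested. CPN10 (BnaC08g16470D) of mitochondria had 2.11 ± 0.257 FPKM in control, 9.17 ± 2.88 in drought and 18.3 ± 1.95 in heat, and the mitochondrial HSP60 (BnaC07g48190D) had 0.357 ± 0.314 FPKM in control, 3.91 ± 0.757 in drought and 2.83 ± 0.328 in heat. Of 97 tested copies for endoplasmic reticulum folding 17 were higher and 1, of the calreticulin CRT3, was lower. ATERDJ3A (BnaCnng24180D), a DnaJ protein of that compartment, stood at 8.24, 9.83 and 8.04 FPKM in the control libraries, 102, 99.96 and 97.9 in drought and 30.1, 30.4 and 30.1 in heat. Drought was highest and heat intermediate, with heat minus drought of -1.70 ± 0.073 (SE, n = 3 per group; limma, adjusted p = 3.42e-09). BIP2 (BnaC07g48050D), its HSP70, had means of 31.7 ± 1.702 FPKM in control, 92.2 ± 3.43 in drought and 93.6 ± 6.23 in heat, and 4 of 8 tested copies were shared. SDF2 had 3 of 4 and the calnexin CNX1 2 of 6 tested copies among the higher genes.

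Of 58 tested copies of heat-shock factors and MBF1 coactivators, 5 were higher in both stresses: 2 of HSFB1, 2 of HSFA4A and 1 of HSFA3. HSF4 (BnaAnng36200D), the symbol the table uses for the repressor HSFB1, stood at 4.03, 3.26 and 3.83 FPKM in the control libraries, 47.99, 42.5 and 43.3 in drought and 24.1, 23.5 and 31.7 in heat. Drought exceeded heat in every library, but the difference of -0.74 ± 0.12 (SE, n = 3 per group; limma, adjusted p = 0.00015) did not reach the size of 1 needed for a call. HSF A4A (BnaC01g11370D) had means of 2.47 ± 0.426 FPKM in control, 21.5 ± 0.337 in drought and 18.9 ± 0.203 in heat. Neither of the 2 tested copies of HSFA2 was shared. DREB2A (BnaAnng01320D), which activates HSFA3 and drought genes, had means of 0.0269 ± 0.0466 FPKM in control, 5.17 ± 0.705 in drought and 2.39 ± 0.539 in heat and was 1 of 5 tested copies and the only shared gene of 28 in the DREB and CBF list.

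Galactinol synthase makes the first intermediate of raffinose, a protective sugar. GolS1 (BnaA04g26930D) stood at 1.22, 2.05 and 1.53 FPKM in the control libraries, 273, 291 and 265 in drought and 13.4, 16.9 and 14.4 in heat, and all 3 of its tested copies were shared, among 4 of 15 tested copies in the raffinose list. All drought libraries lay above all heat libraries, with heat minus drought of -4.13 ± 0.12 (SE, n = 3 per group; limma, adjusted p = 9.28e-11). FTSH6, a plastid metalloprotease, gave all 4 shared genes of the 41 tested plastid protease and light-stress genes. Its copy BnaC09g54690D stood at 11.7, 9.22 and 10.1 FPKM in the control libraries, 699, 684 and 658 in drought and 86.4, 90.2 and 83.99 in heat. Drought was again far above heat, with a difference of -2.96 ± 0.071 (SE, n = 3 per group; limma, adjusted p = 2.75e-11). The copy BnaA10g18880D was at 0.252 ± 0.252 FPKM in control, 214 ± 7.89 in drought and 3.51 ± 1.36 in heat, with a heat minus drought difference of -5.62 ± 0.20 (SE, n = 3 per group; limma, adjusted p = 6.71e-10).

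NSP5, a specifier protein that turns glucosinolate breakdown towards nitriles, had 3 of 4 tested copies among the higher genes. BnaC02g38400D stood at 3.902, 5.16 and 4.71 FPKM in the control libraries, 136, 131 and 138 in drought and 15.4, 13.99 and 14.5 in heat. Drought was above heat, with a difference of -3.12 ± 0.086 (SE, n = 3 per group; limma, adjusted p = 8.47e-11). The related ESP had 1 copy in each direction: BnaC06g06830D had means of 109.9 ± 3.79 FPKM in control, 259.9 ± 10.6 in drought and 1330.0 ± 8.53 in heat and its neighbour by identifier, BnaC06g06840D, had 19.3 ± 2.66 FPKM in control, 5.498 ± 1.47 in drought and 3.12 ± 0.528 in heat. Of 55 tested antioxidant genes 3 were higher and none lower. The peroxidase APX1 (BnaA06g04380D) had means of 150.2 ± 13.04 FPKM in control, 574 ± 27.3 in drought and 420.5 ± 12.3 in heat. The catalase CAT3 (BnaA08g21730D) had 72.6 ± 4.36 FPKM in control, 152 ± 4.31 in drought and 906 ± 13 in heat, with heat minus drought of 2.56 ± 0.045 (SE, n = 3 per group; limma, adjusted p = 2.08e-12). Only 1 of 4 tested APX1 copies and 1 of 6 tested CAT3 copies were shared.

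Abscisic acid is the hormone of water deficit. Of 32 tested receptor copies 3 were higher: 2 of 5 of RCAR1 (PYL9) and 1 of 3 of PYL7. RCAR1 (BnaA07g38130D) stood at 1.82, 1.66 and 0.836 FPKM in the control libraries, 39.03, 42.1 and 41.2 in drought and 6.03, 9.19 and 4.16 in heat. Drought lay above heat, with a heat minus drought difference of -2.54 ± 0.22 (SE, n = 3 per group; limma, adjusted p = 1.46e-06). The phosphatases ABI1 (BnaC01g18020D) and ABI2 (BnaA10g11080D), which block the pathway, and the factor ABF3 (BnaC07g44670D) were higher in 1 copy each, among 3 of 45 tested genes. ABI1 had means of 28.2 ± 0.466 FPKM in control, 79.6 ± 2.58 in drought and 66.2 ± 1.52 in heat. The senescence factor NAP (BnaC06g30680D) had means of 2.16 ± 0.211 FPKM in control, 20.4 ± 1.82 in drought and 10.3 ± 0.906 in heat, and 2 of its 3 tested copies were shared. SEN1 (BnaA01g01780D), a gene of dark-induced senescence, had 5.48 ± 0.242 FPKM in control, 26 ± 2.31 in drought and 25.3 ± 1.63 in heat, and both tested copies were shared.

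Of the 574 higher genes 432 were in no pathway list, AT1G62510, MT2A and AT5G59540 among them. AT1G62510 (BnaC04g19890D), a seed-storage and lipid-transfer domain protein, stood at 9.13, 8.86 and 6.46 FPKM in the control libraries, 136, 131 and 144 in drought and 370.5, 397 and 356 in heat. Heat was above drought, with a heat minus drought difference of 1.44 ± 0.10 (SE, n = 3 per group; limma, adjusted p = 2.12e-07). MT2A (BnaA05g29010D), a metallothionein that binds metals, stood at 99.2, 93.8 and 98.99 FPKM in the control libraries, 1372, 1362 and 1653 in drought and 2915, 2982 and 2656 in heat. Heat was again above drought in each library, with a heat minus drought difference of 0.97 ± 0.069 (SE, n = 3 per group; limma, adjusted p = 2.34e-07). Only 1 of 4 tested AT1G62510 copies and 2 of 7 tested MT2A copies were shared. AT5G59540 (BnaC03g11850D), an oxidoreductase of the 2-oxoglutarate type, had means of 1.24 ± 0.316 FPKM in control, 33.01 ± 1.26 in drought and 28.2 ± 1.796 in heat, and only 1 of its 8 tested copies was shared. In the lists, dormancy and carbon-starvation markers had 5 of 34 tested copies higher and none lower, with AT1G56220 (BnaC09g00190D) at 12.7 ± 1.83 FPKM in control, 35.7 ± 5.16 in drought and 60.7 ± 1.19 in heat. The autophagy list had 2 of 33 tested copies higher and none lower, with ATG8E (BnaC03g25150D) at 4.89 ± 0.196 FPKM in control, 23.6 ± 2.87 in drought and 17.1 ± 0.276 in heat.

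Of 72 tested clock genes 3 were higher. PRR5 (BnaA06g26980D) had means of 0.15 ± 0.0744 FPKM in control, 1.7 ± 0.323 in drought and 5.48 ± 0.423 in heat, EPR1 (BnaC05g14070D) had 9.04 ± 1.33 FPKM in control, 19.98 ± 1.64 in drought and 27.7 ± 2.09 in heat, and CCR1 (BnaC07g05550D), the glycine-rich protein GRP8, had 0.907 ± 0.257 FPKM in control, 2.996 ± 1.11 in drought and 12.4 ± 0.529 in heat. Of 176 tested light-harvesting and photosystem genes 2 were shared, both higher, or 1.14% against 1.3% of all tested genes. Against control, limma called 5 of this list higher and 39 lower in drought, and 35 higher and 10 lower in heat. Over all tested genes these calls covered 5.12% and 6.87% in drought, and 14.4% and 11.2% in heat. The 2 shared were among the 8 tested copies of PSBP-1, of the oxygen-evolving complex. BnaA05g11810D had means of 15.9 ± 0.982 FPKM in control, 159 ± 5.06 in drought and 77.03 ± 4.04 in heat, and BnaC04g13750D had 1.09 ± 0.468 FPKM in control, 10.5 ± 1.57 in drought and 21.8 ± 1.35 in heat. The guard-cell potassium channel GORK (BnaC07g04610D), the only shared copy of 14 tested guard-cell marker copies, had means of 2.02 ± 1.43 FPKM in control, 7.91 ± 0.715 in drought and 5.81 ± 0.4597 in heat. This GORK protein was 56.2% identical to its Arabidopsis match, against a median of 82.42% for the higher genes, so the name is less certain. Of 56 tested SR splicing factor genes none was shared in either direction.

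**Figure D3:**
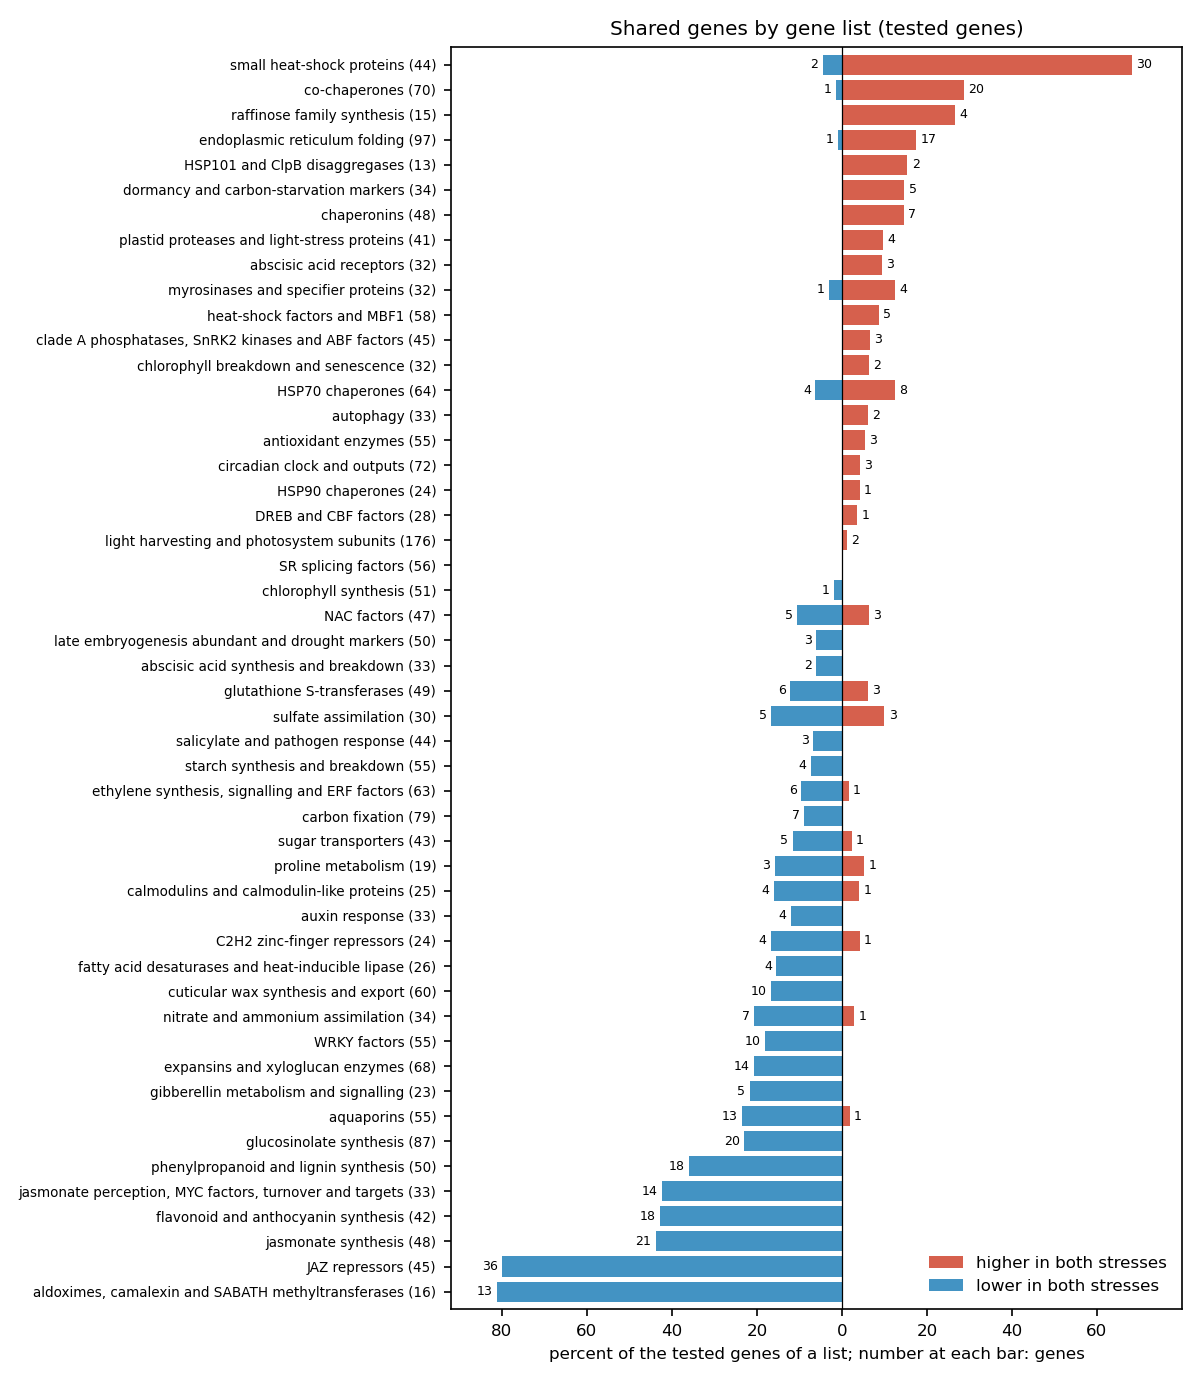
Percent of the tested genes of each of 50 pathway lists that were higher (right) or lower (left) in both stresses, with the number of shared genes beside each bar. Small heat-shock proteins extend farthest on the higher side with 30 of 44, and JAZ repressors and the aldoxime and SABATH list extend farthest on the lower side with 36 of 45 and 13 of 16.

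JAZ repressors, which hold back jasmonate responses, had 36 of 45 tested copies lower in both stresses and none higher, with list medians of -2.6 in drought and -2.7 in heat. JAZ8 (BnaA08g17540D) stood at 48.1, 54.2 and 46.2 FPKM in the control libraries, 0.418, 0.206 and 0.996 in drought and 0.5902, 0.203 and 0 in heat. Stressed libraries were close to 0 and drought and heat overlapped, with a difference of -0.28 ± 0.20 (SE, n = 3 per group; limma, adjusted p = 0.247). JAZ10 (BnaA10g20060D) stood at 57.5, 50.3 and 50.7 FPKM in the control libraries, 0.556, 1.37 and 0.927 in drought and 1.57, 2.02 and 0.794 in heat. Control was high in all 3 libraries, drought and heat were low, and all 5 tested copies were shared. JAZ7 (BnaA03g15910D) had means of 59.5 ± 2.64 FPKM in control, 1.798 ± 0.627 in drought and 0.07703 ± 0.133 in heat, and heat minus drought was -1.36 ± 0.16 (SE, n = 3 per group; limma, adjusted p = 1.87e-05). This JAZ7 protein was 56.5% identical to its Arabidopsis match. All tested copies of JAZ1 (5), JAZ6 (3), JAZ7 (3) and JAZ8 (4) were lower, and none of the 3 of JAZ12.

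Jasmonate synthesis had 21 of 48 tested copies lower and none higher. The lipoxygenase LOX3 (BnaC08g37760D), at the entry of the pathway, stood at 96.2, 103 and 102 FPKM in the control libraries, 2.41, 2.91 and 2.495 in drought and 1.57, 1.99 and 1.73 in heat, and all 4 tested copies were lower. The log2 changes were -4.81 in drought and -5.20 in heat. AOC3 (BnaC09g52550D), an allene oxide cyclase, stood at 198, 192 and 191 FPKM in the control libraries, 9.81, 9.89 and 14.6 in drought and 7.51, 6.38 and 6.67 in heat. Drought lay above heat in each library, with a heat minus drought difference of -0.64 ± 0.12 (SE, n = 3 per group; limma, adjusted p = 0.000787). Both tested copies of AOS and of OPR3, the steps before and after the cyclase, were lower, as were 2 of 13 of LOX2. OPCL1 (BnaC08g19310D), which activates the precursor for its shortening, had means of 93.9 ± 3.65 FPKM in control, 4.96 ± 0.396 in drought and 42.3 ± 2.35 in heat. Its heat level lay between drought and control, with heat minus drought of 2.86 ± 0.071 (SE, n = 3 per group; limma, adjusted p = 3.59e-11).

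Of 33 tested genes for jasmonate perception, MYC factors, turnover and targets, 14 were lower and none higher. All 3 tested copies of MYC2 were lower and none of the 9 of the receptor COI1. CYP94C1 (BnaA07g13320D), which oxidises jasmonoyl-isoleucine, stood at 51.5, 51.99 and 51.3 FPKM in the control libraries, 0.944, 0.493 and 0.741 in drought and 1.57, 0.916 and 1.16 in heat, and both tested copies were lower. TAT3 (BnaC03g26850D), a jasmonate-induced tyrosine aminotransferase, stood at 26.4, 29.4 and 25.2 FPKM in the control libraries, 0.124, 0.4298 and 0.474 in drought and 0.761, 0.725 and 0.296 in heat. In both genes the stressed libraries were far below control, and drought and heat overlapped. The bHLH gene AT4G29930 (BnaA03g49880D) had means of 59.7 ± 4.86 FPKM in control, 0.728 ± 0.107 in drought and 0.495 ± 0.339 in heat, and BHLH92 (BnaA06g36620D) had 32.6 ± 0.629 FPKM in control, 0.146 ± 0.252 in drought and 0.109 ± 0.189 in heat. All 3 and all 4 tested copies were lower.

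**Figure D4:**
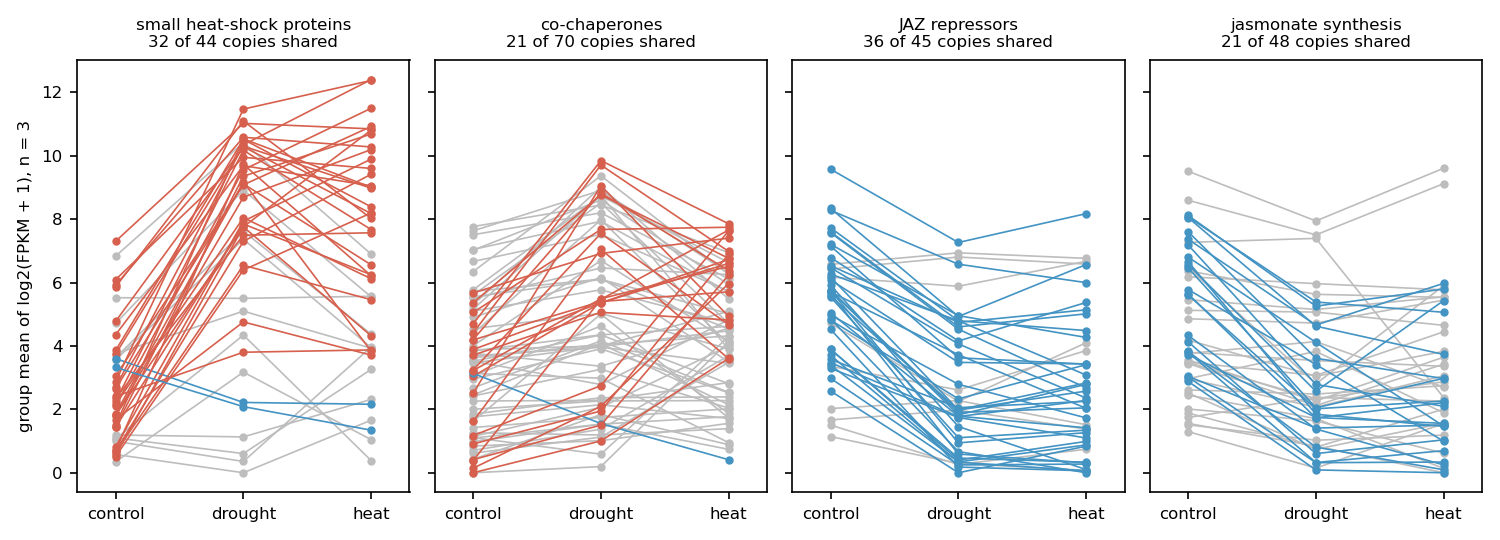
Group means of log2(FPKM + 1) in control, drought and heat for every tested copy of 4 lists, 1 line per copy, with shared copies coloured and the others in grey. Of the small heat-shock protein copies 32 of 44 were shared, of co-chaperones 21 of 70, of JAZ repressors 36 of 45 and of jasmonate synthesis 21 of 48, and the grey lines show the copies that did not meet the rule.

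Ranked by the smaller of its drought and heat changes, the first lower gene was CYP79A2 (BnaA10g25130D), the cytochrome P450 that makes phenylacetaldoxime from phenylalanine. It stood at 130.2, 127 and 141 FPKM in the control libraries, 0.618, 0.721 and 0.803 in drought and 0.3704, 0.218 and 0.214 in heat. Stressed libraries were all near 0, the log2 changes were -6.29 in drought and -6.72 in heat, and both tested copies were lower. AAS (BnaC09g10380D), an aromatic aldehyde synthase that makes phenylacetaldehyde, stood at 64.2, 71.1 and 65.3 FPKM in the control libraries, 0.0574, 0.566 and 0.602 in drought and 0.324, 0.724 and 0.492 in heat, and 3 of its 5 tested copies were lower. Drought and heat overlapped, with a heat minus drought difference of 0.12 ± 0.17 (SE, n = 3 per group; limma, adjusted p = 0.54). The list of aldoximes, camalexin and SABATH methyltransferases had 13 of 16 tested copies lower, with medians of -3.0 in drought and -3.4 in heat. CYP71A13 (BnaA03g14120D), of camalexin synthesis, had means of 41.7 ± 1.996 FPKM in control, 0.108 ± 0.0554 in drought and 1.33 ± 0.147 in heat.

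SABATH enzymes methylate small acids into volatile esters. BSMT1 (BnaA03g31730D), which in Arabidopsis methylates benzoate and salicylate, stood at 428, 471 and 457 FPKM in the control libraries, 76.01, 77.9 and 69.3 in drought and 7.11, 6.16 and 4.96 in heat. Drought lay between control and heat, with heat minus drought of -3.42 ± 0.098 (SE, n = 3 per group; limma, adjusted p = 1.06e-10). AT3G44870 (BnaC08g34950D), of the same family, had means of 212 ± 3.19 FPKM in control, 17.9 ± 0.388 in drought and 1.09 ± 0.428 in heat, with a heat minus drought difference of -3.20 ± 0.12 (SE, n = 3 per group; limma, adjusted p = 8.59e-10). By InterPro entry, a count chosen after the values were seen, 14 of 22 tested SAM-dependent carboxyl methyltransferases were lower and 1 was higher.

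Glucosinolates are sulfur-rich defence compounds of the cabbage family. Of 87 tested synthesis genes 20 were lower and none higher, and the list medians were -1.18 in drought and -0.07 in heat. CYP79B2 (BnaC07g51280D), which starts the indole branch, stood at 40.1, 37.97 and 41.5 FPKM in the control libraries, 1.11, 1.05 and 1.16 in drought and 1.85, 1.57 and 2.12 in heat. Both stresses were far below control, with a heat minus drought difference of 0.43 ± 0.10 (SE, n = 3 per group; limma, adjusted p = 0.00328). CYP81F4 (BnaCnng74800D), which modifies indole glucosinolates, had means of 32.3 ± 4.21 FPKM in control, 0.282 ± 0.134 in drought and 1.95 ± 0.50 in heat, and all 3 tested copies were lower. All 3 tested copies of MYB34, a regulator of the indole branch, were lower as well. Of the aliphatic regulators, 1 of 2 tested copies of MYB29 was shared.

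Phenylpropanoid and lignin synthesis had 18 of 50 tested copies lower and none higher. All 4 tested copies of PAL1 and all 6 of PAL2, the entry enzyme phenylalanine ammonia-lyase, were lower. PAL2 (BnaC06g14510D) stood at 17.8, 17.02 and 17.4 FPKM in the control libraries, 1.04, 1.54 and 1.73 in drought and 1.47, 0.756 and 1.24 in heat. Drought and heat were both low, with a heat minus drought difference of -0.18 ± 0.15 (SE, n = 3 per group; limma, adjusted p = 0.31). 4CL3 (BnaC06g26980D), which feeds flavonoid synthesis, had means of 16.7 ± 1.25 FPKM in control, 1.58 ± 0.3303 in drought and 0.905 ± 0.308 in heat. Flavonoid and anthocyanin synthesis had 18 of 42 tested copies lower and none higher, and 12 of the 18 were lower in heat than in drought. That call was made for 12.0% of the tested shared lower genes and 11.1% of all tested genes. In heat against control, limma called 4 of the 42 higher and 32 lower, calls made for 14.4% and 11.2% of all tested genes.

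TT4 (BnaC02g05070D), chalcone synthase, the first flavonoid step, stood at 313, 294 and 304 FPKM in the control libraries, 101, 97.2 and 99.2 in drought and 1.82, 0.803 and 1.44 in heat. The order was control, drought, heat, with no overlap, and heat minus drought was -5.43 ± 0.13 (SE, n = 3 per group; limma, adjusted p = 2.03e-11). FLS1 (BnaC09g47360D), flavonol synthase, had means of 89.7 ± 2.49 FPKM in control, 41.1 ± 1.03 in drought and 4.44 ± 1.14 in heat, and LDOX (BnaC01g14310D), of the anthocyanin branch, had 43.3 ± 2.23 FPKM in control, 13.9 ± 1.14 in drought and 0.826 ± 0.158 in heat. GSTF12 (BnaA10g17440D), needed for anthocyanin transport, had 42.7 ± 3.42 FPKM in control, 17.7 ± 0.905 in drought and 0.244 ± 0.003801 in heat. CHIL (BnaA10g25120D), a chalcone isomerase-like protein, had 117 ± 3.67 FPKM in control, 25.4 ± 1.91 in drought and 6.68 ± 0.618 in heat. F3H (BnaA04g04230D) had 6.23 ± 0.553 FPKM in control, 0.454 ± 0.173 in drought and 0.446 ± 0.158 in heat, and the libraries of the stresses overlapped. This F3H protein was 58.6% identical to its Arabidopsis match, against a median of 83.09% for the lower genes, so the name is less certain.

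RRTF1 (BnaC03g66140D), an ERF factor of redox responses, stood at 53.4, 52.1 and 53.5 FPKM in the control libraries, 2.09, 1.13 and 0.896 in drought and 0.197, 0.507 and 0.199 in heat, and all 5 tested copies were lower. Drought lay above heat, with a heat minus drought difference of -0.84 ± 0.17 (SE, n = 3 per group; limma, adjusted p = 0.00109), short of the size needed for a call. WRKY factors had 10 of 55 tested copies lower and none higher: 4 of 5 of WRKY40, 4 of 7 of WRKY18 and 2 of 7 of WRKY11. WRKY40 (BnaAnng23990D) stood at 14.6, 17.2 and 13.8 FPKM in the control libraries, 0.4705, 1.11 and 0.986 in drought and 0.443, 0.0913 and 0.269 in heat. The list of C2H2 zinc-finger repressors had 4 of 24 tested copies lower, all of STZ, and 1 higher, of ZF1 (BnaA09g07340D). STZ (BnaC07g11700D), the zinc-finger repressor ZAT10, had means of 8.27 ± 0.973 FPKM in control, 0.346 ± 0.115 in drought and 1.58 ± 0.724 in heat, and 4 of its 6 tested copies were lower. The list of ethylene synthesis, signalling and ERF factors had 6 of 63 tested copies lower and 1 higher, of EBF2 (BnaC09g04050D). ERF1A (BnaCnng05080D) had 10.5 ± 0.499 FPKM in control, 0.667 ± 0.257 in drought and 1.296 ± 0.344 in heat.

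Some genes named for drought were lower in both stresses. RD20, a caleosin that binds calcium, gave all 3 shared genes of 50 tested in the list of late embryogenesis abundant and drought markers, whose medians were 1.37 in drought and -0.09 in heat. These were 3 of 6 tested RD20 copies. Against control, limma called 27 of the 50 higher and 3 lower in drought, and 2 higher and 12 lower in heat. RD20 (BnaC03g18600D) stood at 335, 356 and 352 FPKM in the control libraries, 64.8, 65.6 and 68.7 in drought and 47.7, 46.8 and 47.9 in heat. Drought was above heat, with a heat minus drought difference of -0.47 ± 0.043 (SE, n = 3 per group; limma, adjusted p = 1.8e-06). RD26 (BnaC07g40860D), a NAC factor, had means of 104 ± 3.02 FPKM in control, 30.9 ± 3.73 in drought and 14.4 ± 0.838 in heat, and 3 of its 4 tested copies were lower. Among 47 tested NAC copies 5 were lower and 3 higher in both stresses. In drought against control, limma called 9 of them higher and 5 lower, calls made for 5.12% and 6.87% of all tested genes. NCED9 (BnaC06g38870D), a dioxygenase of abscisic acid synthesis, stood at 49.3, 48.2 and 53.8 FPKM in the control libraries, 3.18, 2.24 and 2.51 in drought and 2.44, 2.56 and 2.51 in heat, and both tested copies were lower. Drought and heat overlapped, with a heat minus drought difference of -0.05 ± 0.11 (SE, n = 3 per group; limma, adjusted p = 0.697). The 2 NCED9 copies were the only shared genes of 33 tested for abscisic acid synthesis and breakdown. Against control, limma called 5 of these 33 higher and 2 lower in drought, and 3 higher and 10 lower in heat. Over all tested genes these calls covered 5.12% and 6.87% in drought, and 14.4% and 11.2% in heat. Of proline metabolism 3 of 19 tested copies, from both proline dehydrogenases, were lower, and 1 of 4 of the synthesis gene P5CS1 was higher.

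Aquaporins, the water channels, had 13 of 55 tested copies lower and 1 higher. PIP2B (BnaC03g72010D), of the plasma membrane, stood at 362, 374 and 362 FPKM in the control libraries, 41.6, 42.4 and 46.1 in drought and 51.5, 46.8 and 44.2 in heat. Both stresses were far below control and overlapped each other, with heat minus drought of 0.13 ± 0.061 (SE, n = 3 per group; limma, adjusted p = 0.0842). Of 8 tested PIP2B copies 3 were lower. TIP2 (BnaC07g23630D), the table's symbol for the vacuolar TIP1;2, had means of 188 ± 3.87 FPKM in control, 34.1 ± 2.13 in drought and 42.9 ± 2.56 in heat, and 3 of 4 tested copies were lower. The higher copy was 1 of 3 of TIP1;1, another of which was lower.

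Cuticular wax synthesis and export had 10 of 60 tested copies lower and none higher. CER4 (BnaC01g04460D), which makes wax alcohols, stood at 101, 102 and 105 FPKM in the control libraries, 12.1, 13.5 and 11.1 in drought and 18.7, 18.99 and 20.6 in heat. Heat was slightly above drought, with a heat minus drought difference of 0.63 ± 0.074 (SE, n = 3 per group; limma, adjusted p = 1.69e-05). Wall-loosening expansins and xyloglucan enzymes had 14 of 68 lower and none higher. XTH6 (BnaCnng13310D), which cuts and rejoins xyloglucan, stood at 283, 292 and 304 FPKM in the control libraries, 50.9, 47.3 and 48.2 in drought and 4.33, 6.23 and 6.198 in heat. Heat was the lowest group, with heat minus drought of -2.93 ± 0.10 (SE, n = 3 per group; limma, adjusted p = 6.21e-10). EXPA1 (BnaA02g14340D), an expansin, had means of 13.5 ± 2.11 FPKM in control, 2.72 ± 1.03 in drought and 2.05 ± 0.665 in heat, and all 3 tested copies were lower.

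Growth hormone genes also appeared. DFL2 (BnaA09g01540D), of the GH3 family, stood at 149, 147 and 141 FPKM in the control libraries, 10.2, 8.84 and 9.24 in drought and 32.1, 33.5 and 33.2 in heat. Heat lay above drought, with a heat minus drought difference of 1.70 ± 0.063 (SE, n = 3 per group; limma, adjusted p = 8.93e-10). RGL3 (BnaA10g17240D), a DELLA repressor of gibberellin responses, had means of 18.2 ± 0.107 FPKM in control, 1.13 ± 0.435 in drought and 0.664 ± 0.133 in heat, and both tested copies were lower. AXR3 (BnaA08g27770D), an Aux/IAA repressor, had 16.1 ± 1.18 FPKM in control, 7.64 ± 2.61 in drought and 1.86 ± 0.3604 in heat. The calcium sensor CML43 (BnaA02g22690D) had 73.3 ± 1.69 FPKM in control, 3.94 ± 0.949 in drought and 3.06 ± 1.402 in heat.

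In nitrogen and sulfur assimilation, nitrate reductase NIA1 (BnaC06g20690D) stood at 44.03, 42.9 and 42.7 FPKM in the control libraries, 3.002, 2.87 and 2.26 in drought and 2.85, 3.09 and 3.12 in heat, and 3 of its 7 tested copies were lower. Drought and heat overlapped, with a heat minus drought difference of 0.12 ± 0.099 (SE, n = 3 per group; limma, adjusted p = 0.301). ATSDI1 (BnaC02g38780D), a gene of sulfur deficiency, had means of 53.3 ± 2.15 FPKM in control, 8.72 ± 1.11 in drought and 11.5 ± 1.46 in heat, and 4 of 5 tested copies were lower. LSU2 (BnaA02g32390D), another such gene, was higher, at 0.533 ± 0.462 FPKM in control, 3.09 ± 0.549 in drought and 9.96 ± 0.767 in heat. FAD7 (BnaC05g42010D), a plastid desaturase that makes the trienoic fatty acids from which jasmonate is built, stood at 142, 149 and 143 FPKM in the control libraries, 21.3, 23.02 and 19.2 in drought and 18.98, 18 and 18.9 in heat. Both stresses were low, drought slightly above heat, with a heat minus drought difference of -0.17 ± 0.068 (SE, n = 3 per group; limma, adjusted p = 0.0408).

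In carbon metabolism 7 of 79 tested carbon fixation copies were lower and none higher. GAPA-2 (BnaC05g09210D), of the Calvin cycle, stood at 1398, 1351 and 1375 FPKM in the control libraries, 547, 563 and 586 in drought and 238, 236 and 235 in heat. Heat was below drought, with a heat minus drought difference of -1.25 ± 0.03 (SE, n = 3 per group; limma, adjusted p = 2.65e-11). GBSS1 (BnaAnng38950D), which makes amylose, had means of 273 ± 7.78 FPKM in control, 108 ± 7.897 in drought and 77.9 ± 3.64 in heat, and all 3 tested copies were lower. Of 55 tested starch genes 4 were lower in both stresses and none higher, with list medians of -0.437 in drought and 1.03 in heat. Against control, limma called 0 of the 55 higher and 15 lower in drought, and 30 higher and 12 lower in heat. Over all tested genes these calls covered 5.12% and 6.87% in drought, and 14.4% and 11.2% in heat. The sugar transporter ESL1 (BnaA08g26710D) had 38.97 ± 4.01 FPKM in control, 4.46 ± 0.882 in drought and 2.79 ± 0.523 in heat, with 4 of 6 tested copies lower. BGL2 (BnaA04g02490D), the pathogenesis-related glucanase PR2, had 252 ± 12.5 FPKM in control, 99.7 ± 2.64 in drought and 11.9 ± 0.647 in heat.

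Other genes that were far lower had less certain roles. ABCG19 (BnaAnng19960D), a transporter, stood at 42.2, 39.7 and 40.9 FPKM in the control libraries, 0.4595, 0.416 and 0.182 in drought and 0.03604, 0.0372 and 0.0365 in heat. TH8 (BnaC06g25130D), a thioredoxin, had means of 35.05 ± 6.31 FPKM in control, 0.362 ± 0.184 in drought and 0.117 ± 0.101 in heat. AT1G07440 (BnaA02g12410D), a dehydrogenase-like protein, had 24.7 ± 1.61 FPKM in control, 0.168 ± 0.117 in drought and 0.162 ± 0.148 in heat, and 1 of its 5 tested copies was lower. CYP71B20 (BnaA10g24620D) had 64.6 ± 1.72 FPKM in control, 0.504 ± 0.122 in drought and 1.37 ± 0.521 in heat, but its protein was only 37.9% identical to the Arabidopsis match, so the name is uncertain.

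Heat minus drought is the contrast that the rule did not use, and it was tested over all 44260 genes. limma called 7756 genes higher in heat than in drought, 17.5% of tested genes, and 4891 lower, 11.1%, while 71.4% were not called. Of the 574 higher genes 82 (14.3%) were higher in heat than in drought, 135 (23.5%) were lower and 357 (62.2%) were not called. Of the 1434 tested lower genes 117 (8.16%) were higher in heat, 172 (12.0%) were lower and 1145 (79.8%) were not called. The rule bounds both changes on 1 side, which bears on these shares, and a missed call does not show that the levels were equal. The median difference was 3.97e-05 for the higher genes, -0.05 for the lower genes and 0.20 for all tested genes. Scaling by trimmed means moved the median of all tested genes by -0.22, and quantile normalization by -0.18. With trimmed-mean scaling the calls were 5473 higher and 6546 lower over all genes, 54 and 155 among the higher genes and 78 and 216 among the lower genes.

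**Figure D5:**
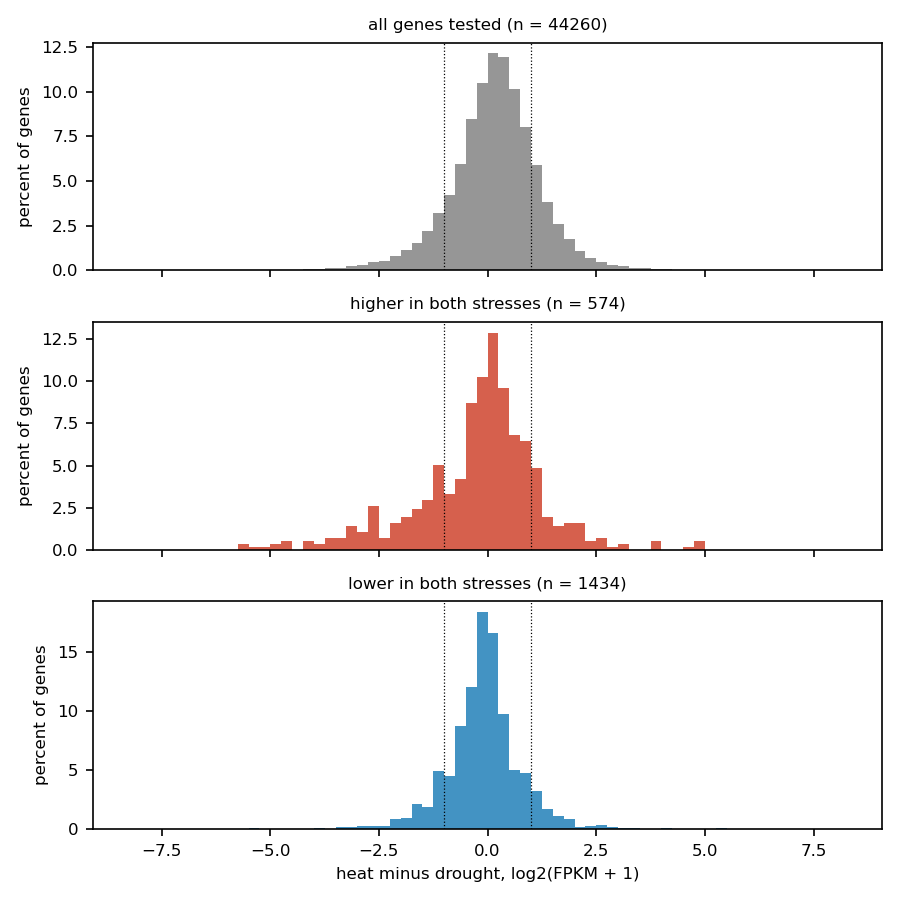
Distribution of the log2 difference of heat minus drought for all 44260 tested genes, the 574 higher genes and the 1434 tested lower genes, in bins of 0.25. The higher genes have a longer tail towards drought, with a lower quartile of -0.87, than the lower genes, with a lower quartile of -0.505; the vertical scales differ between panels.

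Of the 30 higher small heat-shock protein genes, 9 were higher in heat than in drought and 14 lower. Of the 20 higher co-chaperones the counts were 9 and 7, for the 8 higher HSP70 genes 0 and 6, and for the 4 higher genes of the metalloprotease FTSH6 0 and 4. The same calls covered 14.3% and 23.5% of all shared higher genes, and 17.5% and 11.1% of all tested genes. Among the higher genes with at least 10 FPKM in both stresses, those farthest above drought in heat were ATHSP22.0 (BnaA09g23670D), with a heat minus drought difference of 3.05 ± 0.051 (SE, n = 3 per group; limma, adjusted p = 1.47e-12), and AT5G61660 (BnaA08g08680D), at 2.77 ± 0.16 (SE, n = 3 per group; limma, adjusted p = 3.52e-08). The dormancy-associated AT2G33830 (BnaC03g18820D) stood at 41.1, 43.4 and 40.8 FPKM in the control libraries, 127, 126 and 124 in drought and 759, 785 and 796 in heat, with heat far above drought. HSP17.6II (BnaC02g04180D), a copy other than the one above, had a heat minus drought difference of -5.34 ± 0.16 (SE, n = 3 per group; limma, adjusted p = 1.51e-10), and AT3G10020 (BnaC05g43010D) had a heat minus drought difference of -3.97 ± 0.18 (SE, n = 3 per group; limma, adjusted p = 6.08e-09).

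Among the lower genes, AT5G05250 (BnaA10g25140D), of undescribed role, stood at 229, 223 and 231 FPKM in the control libraries, 1.19, 1.76 and 1.81 in drought and 104, 104 and 104 in heat. Drought was near 0 while heat held part of the control level, with heat minus drought of 5.35 ± 0.086 (SE, n = 3 per group; limma, adjusted p = 1.19e-12). AT1G11850 (BnaC08g41800D) had means of 98.8 ± 4.74 FPKM in control, 1.51 ± 0.101 in drought and 41.6 ± 6.74 in heat and AT3G56360 (BnaC08g27310D) had 100.2 ± 4.397 FPKM in control, 3.17 ± 0.416 in drought and 38.03 ± 3.91 in heat, in the same order. CSLA10 (BnaC07g33890D), a mannan synthase-like protein, had 39.5 ± 1.48 FPKM in control, 1.52 ± 0.407 in drought and 17.8 ± 2.05 in heat, and the RING-domain protein AT2G44578 (BnaC04g04970D) had 26.9 ± 2.94 FPKM in control, 0.369 ± 0.322 in drought and 12.5 ± 1.05 in heat.

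Protein length, subgenome and pathway lists were not part of the rule, and they are described with no test. Proteins of the higher genes had a median length of 244.0 residues, those of the lower genes 331.0 and those of all tested genes 356.0. The A subgenome held 46.7% of higher and 55.0% of lower genes against 48.1% of tested genes, and the C subgenome 53.1%, 44.6% and 51.7%. The 50 pathway lists, which were assembled with earlier results of these data known, held 24.7% of higher and 18.9% of lower genes against 5.32% of tested genes. Of the lists, 15 had only higher shared genes, 19 only lower, 15 both and 1 none. An Arabidopsis match was lacking for 29 higher and 28 lower genes.

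Copies of 1 Arabidopsis gene often did not all meet the rule. The 545 higher genes with a match fell at 397 loci and the 1419 lower ones at 922. Of 367 loci with a higher gene and at least 2 tested copies, all copies were shared at 53 and a single copy at 256. For the lower genes the counts were 144 and 478 of 814. At 13 loci copies were shared in opposite directions, among them ESP, CML39, TIP1;1 and BCA3, a carbonic anhydrase with 1 copy higher and 3 lower. For HSP17.6C, ADC2, AT5G20790 and AT5G57150, shared copies were called in opposite directions in heat minus drought: 2 copies of HSP17.6C were higher in heat and 1 lower.

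By InterPro entry, counted after the values were seen, HSP20-like proteins were higher in 29 of 72 tested genes (40.3%) and lower in 2. The conserved HSP70 site was higher in 14 of 52 (26.9%) and lower in 1. The conserved DnaJ site was higher in 11 of 101 (10.9%) and the dormancy and auxin associated family in 5 of 14 (35.7%). Over all tested genes the shares were 1.3% higher and 3.24% lower. On the lower side, the conserved site shared by CO, COL and TOC1, which JAZ proteins also carry, was lower in 33 of 46 tested genes (71.7%). Genes with bHLH domains were lower in 21 of 185 (11.4%) and higher in 3. Integrase-type DNA-binding domains, as in ERF factors, were lower in 29 of 245 (11.8%) and higher in 1. Multidrug efflux proteins of the MATE family were lower in 17 of 82 (20.7%), and the N-terminal domain of non-haem dioxygenases in 22 of 112 (19.6%), each with 1 higher. Not every entry with many shared genes stood apart from all tested genes. In 1 entry 34 of 1344 genes were lower (2.53%), and in another 8 of 561 were higher (1.43%).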

How the data were processed

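Leaf RNA of Brassica napus was sequenced in 9 libraries, 3 per group. HISAT2 aligned the reads, per the submitters' processing notes. The version, build, annotation, counting tool and unit were not given in the sources used here. As to scale, values deposited by the authors behave as FPKM (RPKM would describe them equally well): times the coding length, 99.38% to 99.41% of values above 0 per library were whole multiples of 1 step within 0.01, in all 9 libraries for 87957 of 88392 genes with a length. The column names fit sample titles of both species and were taken as Brassica napus since the gene models are of that species and the table is named with the code of its samples.

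All work was on log2(FPKM + 1) of the unscaled values, so fold changes of low genes are understated. The shared rule was applied to all 101040 genes. limma 3.58.1 (R 4.3.3), with trend and robust moderation, fitted 1 mean per group to the 44260 genes that reached 1 FPKM in 3 or more libraries. Benjamini-Hochberg adjustment ran over all tested genes, and a call needed an adjusted p under 0.05 and a log2 difference of at least 1. The script was tested on simulated data. The other steps used Python 3.11.15, NumPy 2.4.6 and pandas 2.3.3.

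The members, gene lists and rules were chosen with earlier results of these data known. Named genes were the 16 higher and 14 lower genes with the largest smaller-of-the-two change (at least 10 FPKM, 1 per locus), up to 3 per list, the 6 with the largest heat minus drought difference in each direction and the 2 nearest the threshold on each side; not all of them are printed. The alternatives covered the pseudocount, scaling, filters, thresholds, summed copies, fits and each library left out.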

Additional observations from a re-analysis of the deposited data

How the results depend on the processing

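The counts of shared genes moved most with the size of difference required, and also with the pseudocount and with how copies were counted. With a pseudocount of 0.1 the shared genes numbered 1341 higher and 2673 lower, with a log2 difference of at least 2 they numbered 108 and 345, and with the copies of 1 Arabidopsis locus summed 218 and 510 loci met it. Leaving out 1 library at a time gave 575 to 609 higher and 1440 to 1477 lower genes. limma calls in both contrasts gave 579 and 1439, of which 574 and 1433 were the same genes. Trimmed-mean scaling gave 561 and 1473 (500 and 1345 the same genes) and quantile normalization 566 and 1485 (519 and 1360). For heat minus drought, a filter of 5 FPKM left 5081 genes higher in heat, since fewer genes were tested. Trimmed-mean scaling left 54 of the shared higher genes higher in heat. Among the shared lower genes, 216 were higher and 284 lower in heat with a pseudocount of 0.1, and 205 and 292 with voom on reads recovered from the values; the cause was not tested. Drought minus control gave 7980 calls in all with a pseudocount of 0.1 and 5304 with 1. Of 3225 values of heat minus drought for 180 named genes under the alternatives, 3162 stayed called or uncalled as before, 14 lost a call and 49 gained one. For 0 of them a call was reversed. Small differences without a call may change sign under the scalings, which moved the median of all tested genes by -0.22 and -0.18.

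The calls for CYP71A13 (BnaA03g14120D, 0.97 with trimmed-mean scaling and 0.92 with quantile normalization), CYP81F4 (BnaCnng74800D, 0.99 with quantile normalization), Cpn60beta2 (BnaA03g32840D, -0.86) and PSBP-1 (BnaA05g11810D, -0.88) were lost under those scalings. The call for RD26 (BnaC07g40860D) was lost without drought replicate 3, at -0.95.

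Same-numbered libraries did not deviate together (correlations of -0.0184 to 0.0255, and the best match had the same number in 7 of 18 cases). No pairing by number was thus detected, which cannot exclude that such libraries were handled together. With the replicate number as a block, heat minus drought gave 7759 higher and 4894 lower genes, and drought and heat minus control gave 5309 and 11338 calls. At 1 read per 0.0773 to 0.0821 FPKM on 1 kb, the stressed values of the lowest genes rest on few reads.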

Other observations

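Shared genes lay next to each other by identifier in 21 higher and 82 lower pairs. BnaA06g10740D, which has no Arabidopsis match and follows the Hsp70b copy BnaA06g10730D, had means of 3.09 ± 0.634 FPKM in control (SD, n = 3), 1971 ± 74.2 in drought and 76.3 ± 10.7 in heat. CHIL, CYP79A2 and AT5G05250 carried consecutive identifiers (BnaA10g25120D, BnaA10g25130D and BnaA10g25140D), and all were lower in both stresses. Control was at 0 in all 3 libraries for 7 higher genes, and all 6 stressed libraries were at 0 for 18 lower genes.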
